A study of Mus musculus with 6 samples.

Results

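The 10 Notch pathway genes measured here were the receptors *Notch1*, *Notch3* and *Notch4*, the ligands *Dll4*, *Jag1* and *Jag2*, the target genes *Hey1* and *Hes1*, and the glycosyltransferases *Mfng* and *Lfng*. They were taken by symbol from the 32285 genes of each count table, as genes of the pathway picked with earlier results of these data known. Their unique molecular identifiers (UMIs, 1 per captured transcript) were counted by droplet single-cell RNA-seq in cells sorted from mouse dorsal skin, and summed for each type of cell in each library. The mice carried *Cdh5*-CreERT2, a tamoxifen-activated Cre recombinase under the promoter of the gene for VE-cadherin, and a tdTomato reporter that Cre switches on. The sort was thus aimed at cells with a history of *Cdh5* activity, endothelial or not. The study regards the sorted immune cells and fibroblasts as contaminants without *Cdh5*. WT telogen mice (tdTomato;Cdh5-CreERT2;Krt14-H2BGFP, strain C57BL/6;CD1) were taken at postnatal day 20, in the resting phase of the hair cycle. WT anagen mice had the same alleles and strain and were taken at postnatal day 32, in the growth phase. Alk1 KO telogen mice (Alk1 flox/flox;tdTomato;Cdh5-CreERT2, strain C57BL/6, without the Krt14-H2BGFP transgene) were taken at postnatal day 25. All 3 groups received tamoxifen at 200 µg/g on postnatal day 17, so the controls carried Cre and had been given the drug as well. Each group had 2 libraries from 2 mice, numbered replicate 1 and replicate 2, and p-values measure the spread between these libraries only. The Alk1 KO libraries differed from the WT telogen libraries in age, strain and the keratinocyte transgene as well as in the floxed allele. The study also describes the Alk1 KO data as an earlier dataset of its authors. Those libraries held 10615358 and 11239445 UMIs in all, against 32626434 and 43317677 in WT telogen. The floxed allele cannot be told apart from these other differences. The genotype field of the Alk1 KO libraries reads wild type whereas their description gives the floxed allele, which was followed here.

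Notch receptors are cut upon binding a Delta-like or Jagged ligand on a neighbouring cell, and the freed intracellular part joins the DNA-binding protein RBPJ to switch on target genes such as those of the Hes and Hey families. Fringe enzymes, among them Mfng and Lfng, add a sugar to the receptor and thereby alter which ligands it answers to. In blood vessels, Dll4, Jag1 and Notch1 are known for their roles in arterial identity and in the choice between tip and stalk cells during sprouting, Notch4 is largely an endothelial receptor, and Notch3 is the receptor of pericytes and vascular smooth muscle. Alk1, encoded by *Acvrl1*, is an endothelial receptor for BMP9 and BMP10, whose signalling converges with Notch on *Hey1* and *Hes1*.

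After removal of barcodes outside 200 to 5000 genes or with 10% or more mitochondrial UMIs, 20941 cells were kept, between 1713 and 5106 a library, with a median of 4371 to 6935 UMIs a cell. Any pair of libraries shared 1 to 8 barcodes, which summed to 47 over all pairs. Clusters were named from marker genes that did not include the 10 members, and the members were also left out of the clustering itself. The names Artery, Vein, Cap-Kdr and Cap-Rgcc (capillaries led by *Kdr* or *Rgcc*) stand for endothelial cells (ECs) that resemble these vessels. So do Lymph-Col and Lymph-Cap (collecting and capillary lymphatics). Pericyte-like cells, named from markers of pericytes and vascular smooth muscle together, and Cdh5+/Krt19+ cells are non-endothelial. These 8 populations held 14810 cells. Levels are given as CPM, the UMIs of a gene per 1000000 UMIs of all genes of that population in that library, and WT values are given in the order telogen replicates 1 and 2, anagen replicates 1 and 2. The summed level of 10 EC markers lay between 5679 and 9917 CPM in the 6 EC populations, between 688 and 3571 in Pericyte-like cells and between 313 and 674 in Cdh5+/Krt19+ cells, so the non-endothelial populations held some EC transcripts. Hemoglobin and other erythroid genes (5 markers) reached 19780 CPM in Cap-Kdr cells of WT telogen replicate 1 and 11930 in those of Alk1 KO replicate 2, against 87.5 to 1300 in the other 4 libraries.

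Among the receptors, *Notch1* was found in every population and *Notch3* and *Notch4* were restricted. *Notch1* stood at 426.5, 405.5, 320 and 278 CPM in Artery cells and at 434, 332, 275 and 209 in Cap-Rgcc cells of the 4 WT libraries, and these ranges overlapped. The next 5 populations (Lymph-Cap, Pericyte-like, Cap-Kdr, Lymph-Col and Vein) had means between 153 and 167 and could not be ordered, since each range overlapped the next. Cdh5+/Krt19+ cells came last at 48.2, 30.4, 52.5 and 30.03, below every value of the other 7 populations. *Notch1* thus formed 3 tiers, with arteries and *Rgcc* capillaries above the rest of the vessels. *Notch4*, on chromosome 17 at 34564268 to 34588503 (GRCm38), was highest in Artery cells (73.5, 83.4, 79.1 and 97.7) and Cap-Kdr cells (63.1, 67.2, 74.3 and 115), followed by Cap-Rgcc cells (48.9, 63.8, 37.3 and 36.9). In Vein cells it lay at 6.51, 9.72, 6.18 and 8.58, and in both lymphatic populations at or below 4.80. *Notch4* transcripts were therefore a feature of arteries and capillaries and near the floor in veins and lymphatics. *Notch3* (chromosome 17, 32120820 to 32166852) measured 300.3, 339.6, 300.5 and 352 in Pericyte-like cells and no more than 5.97 in any other population, a 109-fold gap to the next mean.

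All 3 ligands were highest in Artery cells and differed in what came next. *Jag1* reached 254, 196.5, 246.5 and 261 CPM in Artery cells, against 88.8, 88.7, 102.5 and 164 in Pericyte-like and 109, 84.5, 141 and 109 in Cdh5+/Krt19+ cells. The other EC populations had *Jag1* levels between 11.7 (a Cap-Kdr value) and 49.5 (a Vein value), so that the non-endothelial cells carried more *Jag1* than any EC population but the artery. *Jag2* measured 176, 168.5, 196 and 202 in Artery cells, with no overlap with the next population, Cap-Kdr (63.1, 65.7, 50.3 and 78.3). Vein cells held 14.6, 20.3, 20.4 and 16.8 and Cdh5+/Krt19+ cells 2.81 or less. *Dll4*, the ligand of arteries and sprouting tips, stood at 210.4, 144, 169 and 184 in Artery cells, 162, 91.9, 114 and 102 in Cap-Rgcc cells and 78.9, 65.7, 124 and 103 in Cap-Kdr cells, each range overlapping the next. Lymphatic cells held an intermediate level, with means of 53.2 (Lymph-Col) and 50.9 (Lymph-Cap), and Vein cells 9.76, 9.72, 9.45 and 9.57. The vein was thus the EC population with the least *Dll4*, below the lymphatics in every WT library.

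The target genes *Hey1* and *Hes1*, both transcriptional repressors, were highest in different vessels. *Hey1* was highest in Artery (59.9, 85.1, 94.8 and 99.7) and Cap-Kdr cells (55.9, 49.6, 74.3 and 66.5), whose ranges overlapped, and measured 2.44, 2.65, 5.09 and 3.79 in Vein cells. *Hes1* was highest in Lymph-Col cells (434.5, 347, 425 and 197.5) and lowest in Vein (87.8, 76, 75.98 and 43.9) and Cap-Rgcc cells (75.2, 83.04, 60.5 and 31.1), with Artery cells (121, 129.7, 132 and 83.2) in the lower part of the order. No neighbouring populations in the *Hes1* order differed beyond their spread, and WT anagen replicate 2 had the lowest *Hes1* of the 4 WT libraries in each of the 6 EC populations. Of the fringe genes, *Mfng* was highest in Cap-Kdr cells (77.4, 77.4, 82.5 and 97.4), followed by Vein, Artery and Cap-Rgcc means of 65.7, 54.5 and 54.1, and was at or below 4.39 in lymphatic cells. *Lfng* had its highest means in Cap-Kdr (27.3 ± 11.9, SD over 4 libraries) and Lymph-Cap cells (26.2 ± 5.1) and was at or below 3.85 in every WT library of Cdh5+/Krt19+ cells. The pair of fringe genes therefore differed in lymphatic cells, where *Mfng* was nearly absent and the *Lfng* range (13.3 to 33.6) overlapped those of Cap-Kdr, Vein and Artery cells.

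Of the 10 genes, 7 had a promoter entry in the RefSeq table of GRCm38, and the core motif of RBPJ (TGGGAA, searched on both strands in the 250 bases before the start) was found in 1 of them, *Lfng*, against 21.6% of 32851 promoters. The longer match CGTGGGAA, which contains the core, was there too and occurs in 0.636% of those promoters. The stretch with both matches is shown because *Lfng* was the only member to hold the motif and was among the genes higher in several Alk1 KO populations; it lies on the plus strand at chr5:140607181-140607280, 160 to 61 bases before the RefSeq start, with the matches in capitals (the first one read on the minus strand).
Lfng: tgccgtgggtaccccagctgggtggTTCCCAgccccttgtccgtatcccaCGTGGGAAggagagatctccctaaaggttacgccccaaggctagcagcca
A match of letters is not a binding site, and binding was not measured. *Hey1*, *Hes1* and *Mfng* were not searched.

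The populations were compared in the 4 WT libraries with edgeR on the summed counts, where a call needed an adjusted p under 0.05 (Benjamini-Hochberg over all genes tested) and a fold above 1.3. All values are log2 fold changes ± SE. The mean of several populations is here the mean of their log2 levels. The populations came from clusters of other genes in the same cells, so these p-values cover the spread between libraries and not the choice of clusters. Against the mean of the other 5 EC populations, Artery cells had 7 of the 10 members higher and none lower, where 18.7% of all 11022 genes tested were higher and 13.4% lower. Of the ligands, *Jag1* stood at 3.16 ± 0.10 (adjusted p = 1.12e-23), *Jag2* at 3.06 ± 0.11 (adjusted p = 3.44e-22) and *Dll4* at 1.88 ± 0.14 (adjusted p = 1.28e-13). *Notch4* lay between *Jag2* and *Dll4* at 2.74 ± 0.15 (adjusted p = 6.20e-17), as did *Hey1* at 2.28 ± 0.15 (adjusted p = 8.20e-15). *Mfng* was at 1.88 ± 0.22 (adjusted p = 1.04e-08) and *Notch1* at 0.97 ± 0.10 (adjusted p = 4.11e-10). On the CPM scale the *Mfng* mean of Artery cells (54.5) lay below those of Cap-Kdr (83.7) and Vein cells (65.7). In a mean of logs its low level in lymphatic cells weighs more. *Hes1* (-0.26 ± 0.12, adjusted p = 0.0867), *Lfng* (-0.43 ± 0.20, adjusted p = 0.0843) and *Notch3* (0.54 ± 0.46, adjusted p = 0.378) were not called. The members' median was 1.88, against 0.16 for 41 other Notch pathway genes tested and 0.00 over all genes. Against this mean, arteries thus held more of all 3 ligands and of 2 receptors, whereas of the target genes among the members *Hey1* alone was called. On the CPM scale the Artery ranges of *Jag1* and *Jag2* lay above those of the next population. Those of *Notch1*, *Notch4*, *Dll4* and *Hey1* overlapped the next. *Notch4* averaged 83.4 in Artery and 79.8 in Cap-Kdr cells, and *Notch1* 357 in Artery and 312 in Cap-Rgcc cells. All 7 calls held with each WT library left out.

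Blood ECs (the mean of 4 populations) exceeded lymphatic ECs (the mean of 2) in 8 members and fell below them in 1, where 21.7% of all genes were higher and 23.4% lower. *Mfng* differed most, at 5.50 ± 0.30 (adjusted p = 1.32e-17), followed by *Notch4* (3.48 ± 0.23, adjusted p = 2.27e-15) and *Jag2* (2.57 ± 0.15, adjusted p = 2.10e-16). Differences below 1 were measured for *Hey1* (0.78 ± 0.19, adjusted p = 6.55e-04), *Notch1* (0.57 ± 0.09, adjusted p = 1.79e-06), *Jag1* (0.47 ± 0.12, adjusted p = 0.00126) and *Dll4* (0.44 ± 0.15, adjusted p = 0.012), and *Notch3* (1.95 ± 0.57, adjusted p = 0.00409) rested on 67 against 5 counts. *Hes1* went the other way, at -1.53 ± 0.09 (adjusted p = 3.24e-16), and *Lfng* was not called (-0.28 ± 0.17, adjusted p = 0.164). These means did not hold for each blood population. *Jag1* averaged 239 CPM in Artery cells, 29.9 in Lymph-Col and 36.9 in Lymph-Cap cells. Its Vein range overlapped both lymphatic ranges, and both capillary means (27.2 or less) lay below both lymphatic means. In Vein cells *Dll4* (mean 9.63) and *Hey1* (3.49) lay below both lymphatic populations. Lymphatic vessels were thus set apart by high *Hes1* with hardly any *Mfng* or *Notch4*. The *Dll4* call was lost without WT telogen replicate 1 (0.37, adjusted p = 0.0573) and without WT anagen replicate 1 (0.39, adjusted p = 0.0819), and the *Notch3* call without WT anagen replicate 1 (1.57, adjusted p = 0.0542). Under stricter limits on cells (at least 500 genes and under 5% mitochondrial UMIs) *Dll4*, *Jag1* and *Notch3* were not called.

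Between the lymphatic populations, *Hes1* was higher in Lymph-Col than in Lymph-Cap cells (0.54 ± 0.15, adjusted p = 0.00514) and *Hey1* was lower (-0.92 ± 0.32, adjusted p = 0.0246), with 15.1% of all genes higher and 14.3% lower. The other 8 members were not called. Neither call held throughout: *Hes1* stood at 0.47 (adjusted p = 0.0502) without WT telogen replicate 1, and *Hey1* at -0.88 (adjusted p = 0.0894) without WT telogen replicate 2 and -0.84 (adjusted p = 0.112) without WT anagen replicate 1. *Hes1* was not called under the stricter cell limits or without the library block either.

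The capillary populations differed in 7 members, 4 higher and 3 lower in Cap-Kdr than in Cap-Rgcc cells, with 22.8% and 21.2% of all genes so called. Higher in Cap-Kdr cells were *Hes1* (1.32 ± 0.17, adjusted p = 1.21e-07), *Lfng* (1.04 ± 0.29, adjusted p = 0.00363), *Hey1* (0.84 ± 0.23, adjusted p = 0.00301) and *Notch4* (0.61 ± 0.19, adjusted p = 0.00967). Lower were *Notch1* (-1.14 ± 0.14, adjusted p = 7.38e-08), *Jag1* (-1.19 ± 0.22, adjusted p = 5.19e-05) and *Dll4* (-0.55 ± 0.20, adjusted p = 0.0245). Cap-Kdr cells thus held less *Notch1* and less of 2 ligands than Cap-Rgcc cells but more of both target genes. *Dll4* was not called without WT telogen replicate 1 (-0.38, adjusted p = 0.157) or replicate 2 (-0.54, adjusted p = 0.0551), *Hey1* without WT anagen replicate 1 (0.65, adjusted p = 0.0568), and *Notch4* without WT anagen replicate 1 (0.58, adjusted p = 0.0591) or replicate 2 (0.28, adjusted p = 0.335). Under the stricter cell limits *Dll4* and *Lfng* were not called. *Dll4* was also lost without correction between libraries and without the library block, and *Notch4* at a finer clustering (resolution 1.2), with DESeq2 and without the library block. Erythroid transcripts were most abundant in Cap-Kdr cells of WT telogen replicate 1, and their part in these differences was not tested.

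Vein cells fell below the mean of both capillary populations in 6 members and exceeded it in 1, where 12.4% of all genes were lower and 14.1% higher. *Dll4* (-3.39 ± 0.24, adjusted p = 1.73e-13), *Hey1* (-3.37 ± 0.29, adjusted p = 1.64e-11) and *Notch4* (-2.87 ± 0.22, adjusted p = 1.74e-12) fell most, then *Jag2* (-1.63 ± 0.17, adjusted p = 1.47e-09), *Notch1* (-0.52 ± 0.13, adjusted p = 0.00149) and *Hes1* (-0.47 ± 0.15, adjusted p = 0.0146). *Jag1* was the member that rose, at 0.98 ± 0.16 (adjusted p = 1.35e-05), and at resolution 1.2 it stood at 0.22 and was not called. *Mfng* (-0.00 ± 0.19, adjusted p = 1) and *Lfng* (0.38 ± 0.23, adjusted p = 0.217) did not pass the test, and the *Hes1* call was lost without WT anagen replicate 1 (-0.43, adjusted p = 0.0865), under the stricter cell limits, and without the correction or the block. The venous cells were thus the EC population poorest in *Dll4*, *Hey1* and, among blood vessels, *Notch4*.

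Pericyte-like cells were named from markers of pericytes and vascular smooth muscle together. On this scale they were called higher than the 6 EC populations in 4 members and lower in 1. Of all genes 21.5% were higher and 13.0% lower. *Notch3* was 8.03 ± 0.16 (adjusted p = 1.71e-29), the largest difference of any member in any of these contrasts, followed by *Jag1* (1.40 ± 0.13, adjusted p = 3.77e-11), *Hey1* (0.60 ± 0.22, adjusted p = 0.0284) and *Hes1* (0.58 ± 0.12, adjusted p = 2.00e-04). *Lfng* was lower (-1.75 ± 0.35, adjusted p = 1.03e-04), and *Notch1* missed the fold threshold (-0.31 ± 0.12, adjusted p = 0.0376). EC markers in these cells summed to 1565 to 3571 CPM in the WT libraries, and *Notch4* (14.9, 26.2, 30.4 and 11.7) and *Dll4* (69.2, 47.3, 60.9 and 17.6) were both lowest in WT anagen replicate 2, the library with the fewest EC transcripts; the part of EC transcripts in these levels was not tested. On the CPM scale *Hey1* was not higher, with a mean of 34.5 against 36.1 over the 6 EC populations; in a mean of logs its low level in Vein cells weighs more. The *Hey1* call was lost without WT telogen replicate 1 (0.39, adjusted p = 0.243) or replicate 2 (0.50, adjusted p = 0.191), and with likely doublets removed, at resolution 1.2 or without the library block. Under the stricter cell limits *Hes1* (0.22, adjusted p = 0.392) and *Lfng* (-0.88, adjusted p = 0.196) were not called.

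Cdh5+/Krt19+ cells, which share the *Cdh5* history of the sort but hold few EC transcripts, fell below the ECs in 7 members, where 30.8% of all genes were lower and 34.3% higher. The decreases were -4.39 ± 0.26 (adjusted p = 1.01e-16) for *Dll4*, -4.31 ± 0.24 (adjusted p = 1.58e-17) for *Jag2*, -3.54 ± 0.29 (adjusted p = 5.21e-13) for *Hey1* and -3.19 ± 0.30 (adjusted p = 1.36e-11) for *Notch4*. *Lfng* (-3.09 ± 0.28, adjusted p = 4.77e-12), *Mfng* (-3.02 ± 0.44, adjusted p = 1.96e-07) and *Notch1* (-2.50 ± 0.13, adjusted p = 3.90e-18) fell as well. *Jag1* alone was higher (1.37 ± 0.10, adjusted p = 6.45e-14), and *Hes1* (-0.20 ± 0.12, adjusted p = 0.115) and *Notch3* (0.41 ± 0.40, adjusted p = 0.364) were not called. These cells therefore held *Jag1* with hardly any *Dll4*, *Jag2*, *Notch4* or *Hey1*, and all 8 calls held with each WT library left out.

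**Figure D1:**
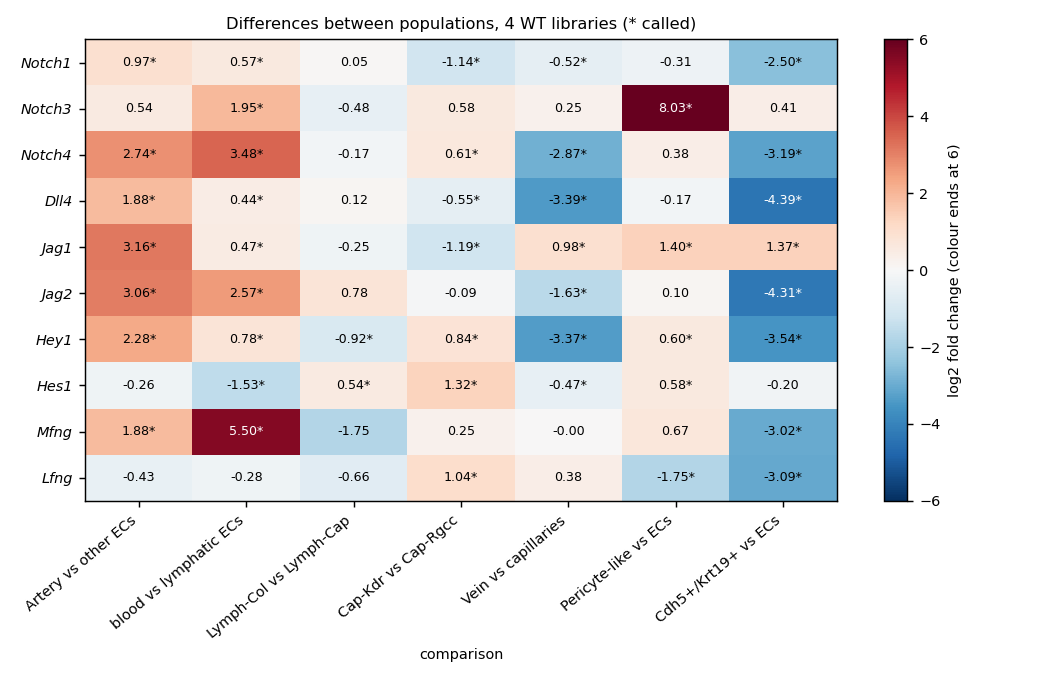
Log2 fold changes (colour and printed value) of the 10 genes in the 7 comparisons of WT populations, with called differences marked. The Artery column shows *Jag1* at 3.16, *Jag2* at 3.06 and *Notch4* at 2.74, the Vein column *Dll4* at -3.39 and *Hey1* at -3.37, and the Pericyte-like column *Notch3* at 8.03.

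Of 46 other genes of the pathway (ligands, receptors, ligand ubiquitin ligases, proteolysis, transcription, targets and regulators), 41 were tested in these comparisons. The counts are to be read against the shares of all genes, which are given again in parentheses (higher, lower). In Artery cells 11 of them were higher and 4 lower (18.7%, 13.4%), led by the target gene *Hey2* (5.07 ± 0.29, adjusted p = 1.16e-15) and by *Nrarp*, a Notch-induced feedback inhibitor (1.87 ± 0.14, adjusted p = 8.78e-14). Between blood and lymphatic ECs 13 were higher and 10 lower (21.7%, 23.4%). The Deltex gene *Dtx1* (-7.69 ± 0.24, adjusted p = 3.54e-24) and the receptor *Notch2* (-3.98 ± 0.21, adjusted p = 4.76e-18) were on the lymphatic side, and *Neurl1b*, a ubiquitin ligase for ligands, on the blood side (3.90 ± 0.45, adjusted p = 3.96e-09, 264 against 5 counts). Lymphatic cells with little *Notch4* thus held more *Notch2*. In Lymph-Col against Lymph-Cap cells 10 were higher and 6 lower (15.1%, 14.3%), *Hey2* among the former with 14 against 0 counts, at least 2.03-fold higher. Cap-Kdr cells had 9 higher and 8 lower than Cap-Rgcc cells (22.8%, 21.2%), about the shares of all genes, with *Hey2* at 2.47 ± 0.64 (adjusted p = 0.0022) and *Neurl3* at -2.26 ± 0.28 (adjusted p = 5.35e-08). Vein cells had 6 higher and 2 lower (14.1%, 12.4%), among them *Psen2*, the catalytic subunit of a gamma-secretase (2.13 ± 0.15, adjusted p = 1.88e-13), and *Neurl3* (2.10 ± 0.19, adjusted p = 7.52e-11). Pericyte-like cells had 11 higher and 9 lower (21.5%, 13.0%), and there the target gene *Heyl* was 7.12 ± 0.35 (adjusted p = 1.90e-17) and the non-canonical ligand *Dlk1* 7.67 ± 0.32 (adjusted p = 2.03e-19). Cdh5+/Krt19+ cells had 11 higher and 17 lower (34.3%, 30.8%), with *Heyl* at 5.59 ± 0.34 (adjusted p = 1.19e-15) and *Dtx4* at 6.79 ± 0.25 (adjusted p = 2.87e-21). Of the Hey family, *Hey1* and *Hey2* were thus higher in arteries, and *Heyl* in the non-endothelial populations, each against a mean of EC populations. *Hey1* was called in Pericyte-like cells too (0.60 ± 0.22), a call lost under several alternatives. *Egfl7*, the gene with the largest decrease in Cdh5+/Krt19+ cells (-4.93 ± 0.21, adjusted p = 1.59e-20), also served as an EC marker, so that value was used in naming.

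Shares of cells with at least 1 UMI were compared at a fixed depth. After each cell was thinned to 1500 UMIs, *Notch1* was seen in 33.5% (31.5 to 35.5%) of WT Artery cells, *Jag1* in 30.1% (28.2 to 32.1%), *Jag2* in 27.3% (25.4 to 29.2%) and *Dll4* in 21.96% (20.2 to 23.8%) (95% exact binomial intervals, counting error only). In Vein cells *Dll4* was seen in 1.26% (0.708 to 2.07%) and *Hey1* in 0.673% (0.291 to 1.32%). Immune-like cells, used here as a background, had *Dll4* in 0.227% (0.0912 to 0.467%), but most of them came from telogen and most Vein cells from anagen libraries. Within WT telogen the *Dll4* shares were 0.769% (0.0933 to 2.75%) of Vein and 0.182% (0.0593 to 0.425%) of immune-like cells, and within WT anagen 1.40% (0.748 to 2.38%) and 0.580% (0.0703 to 2.08%). The intervals overlapped in both stages at this depth, and the difference between the shares was not tested. Without thinning, *Dll4* was seen in 6.86% of Vein and 0.765% of immune-like cells of the pooled WT libraries, with the stages mixed as before. The median depth before thinning was 4985 UMIs in Artery, 8137 in Vein and 11680 in immune-like cells. *Notch3* was seen in 37.5% (32.7 to 42.5%) of Pericyte-like against 0.231% (0.0751 to 0.539%) of Artery cells. *Hes1* was seen in 31.8% (29.6 to 34.1%) of Lymph-Col and 0.843% (0.551 to 1.23%) of immune-like cells, and *Mfng* in 13.01% (11.1 to 15.1%) of Cap-Kdr against 0.68% (0.422 to 1.04%) of immune-like cells. *Lfng* was seen in 3.62% (2.62 to 4.86%) of Cap-Kdr cells and in 5.57% (4.79 to 6.44%) of immune-like cells, a cell type that itself carried *Lfng* at 24.3 to 57.1 CPM in the WT libraries.

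Over the mean WT levels of the 8 populations, the members most alike were *Dll4* and *Hey1* (Pearson r 0.935 on the log scale) and *Notch4* and *Jag2* (0.929), and the least alike *Hes1* and *Mfng* (-0.665). Other genes were compared if their mean over the 8 populations was at least 20 CPM, which left 6038. The nearest patterns were those of *S1pr3*, *Cox4i2* and *Rgs4* for *Notch3* (0.992 to 0.993), *Efhd1* for *Notch4* (0.984), *Arhgef2* for *Dll4* (0.961), *Pcsk5* for *Jag1* (0.949), *Pik3r3* for *Jag2* (0.977) and *Cdk17* for *Notch1* (0.982). For *Hey1* it was *Lrrc58* (0.962), for *Hes1* *Epc1* (0.975), for *Mfng* *Sp100* (0.993) and for *Lfng* *Pxk* (0.963). These correlations describe 8 points that share libraries and depth.

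The next comparison asked whether the pathway genes changed in vessels as the hair cycle moved from telogen to anagen. Of 63 tests over the 8 populations, 1 was called. The share of all genes called in either direction ran from 0.0% (Pericyte-like, where 523 genes reached an unadjusted p under 0.05) and 0.038% (Cap-Kdr) through 0.433% (Lymph-Cap), 0.527% (Artery), 0.657% (Cap-Rgcc), 0.669% (Vein) and 0.681% (Cdh5+/Krt19+) to 1.63% (Lymph-Col), so that few genes of any kind were called. The called member was *Mfng* in Cdh5+/Krt19+ cells, which stood at 0 and 0.405 CPM in telogen and 5.66 and 5.61 in anagen (4.51 ± 0.74, adjusted p = 0.0409). It rested on 31 against 2 counts, a ratio of 24.65 with a counting interval of 6.27 to 213, and EC markers in these cells summed to 367 and 428 CPM in telogen and 674 and 630 in anagen. The part of EC transcripts in it was not tested, and the call was lost without WT telogen replicate 1 (3.76, adjusted p = 0.226) or replicate 2 (7.18, adjusted p = 0.11). *Egfl7*, an EC marker, was the 1 other pathway gene called there (1.36 ± 0.16, adjusted p = 0.0131), and it was called in Lymph-Col cells too (0.74 ± 0.14, adjusted p = 0.027).

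No other member test by stage passed. In Artery cells *Notch1* stood at 426.5 and 405.5 CPM in telogen and 320 and 278 in anagen (-0.37 ± 0.13, adjusted p = 0.224) and *Hey1* at 59.9 and 85.1 and 94.8 and 99.7 (0.54 ± 0.18, adjusted p = 0.202). In neither gene did the stages overlap, yet neither passed. In Cap-Rgcc cells *Mfng* stood at 38.9 and 40.04 in telogen and 59.98 and 77.5 in anagen (0.91 ± 0.23, adjusted p = 0.102), *Notch1* at 434 and 332 against 275 and 209 (-0.56 ± 0.20, adjusted p = 0.202) and *Hes1* at 75.2 and 83.04 against 60.5 and 31.1 (-0.69 ± 0.30, adjusted p = 0.278). The calls depended on the anagen library. Without WT anagen replicate 1, 9 member tests were called, with *Hes1* lower in Vein (-0.79), Cap-Rgcc (-1.23) and Lymph-Col cells (-0.92), *Notch1* lower in Cap-Rgcc (-0.76) and Lymph-Col cells (-0.81) and *Mfng* higher in Cap-Rgcc cells (1.09). In Pericyte-like cells it was *Dll4* (-1.67) and *Jag1* (0.93), and without WT anagen replicate 2 the single call was *Hes1* in Lymph-Cap cells, in the opposite direction (0.65). Which *Hes1* differences by stage were called, and in which direction, thus depended on the anagen library left out. No difference in the stage effect between vessel types was called by an interaction test in edgeR, with 0 of 9 members called for Artery minus the other blood ECs (0.085% of all genes) and 0 of 9 for blood minus lymphatic ECs (0.397%). The members' values ran from -0.34 to 0.43 in the former (adjusted p 0.958 to 1.0) and from -2.02 (*Mfng*) to 0.16 in the latter (adjusted p 0.259 to 0.994). At an unadjusted p under 0.05, 0 and 2 members and 587 and 1049 of all genes passed, and DESeq2 called 0 members as well.

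For the Alk1 KO comparison, *Acvrl1* itself was measured first. It stood at 315 and 282 CPM in WT telogen and 310.2 and 253 in Alk1 KO Artery cells (-0.08 ± 0.16, adjusted p = 0.787), and at 195 and 159 against 112 and 100.5 in Cap-Kdr cells (-0.96 ± 0.21, adjusted p = 0.00369). The decrease was called in Cap-Rgcc (-0.69 ± 0.22, adjusted p = 0.0401) and Pericyte-like cells too (-1.88 ± 0.45, adjusted p = 0.0475), and not in Vein (125 and 114 against 102 and 106), Lymph-Col (66.5 and 60.5 against 63.9 and 45.8), Lymph-Cap (81.5 and 51.2 against 70.8 and 48.6) or Cdh5+/Krt19+ cells (17.02 and 11.5 against 11.9 and 0). The deleted exons are not given in the sources used here, so 3′ tags of *Acvrl1* need not show the deletion. Of 61 member tests in the 8 populations, 19 were higher and 1 was lower in the libraries labelled Alk1 KO, where 3.06 to 16.6% of all genes were higher and 3.47 to 18.0% lower in a population. Of these 20 calls 5 held with each library left out and 9 with DESeq2. The 11 that DESeq2 did not call were *Lfng* and *Notch4* in Artery and in Lymph-Col cells, *Dll4*, *Lfng* and *Notch4* in Vein, *Dll4*, *Hey1* and *Hes1* in Cap-Rgcc and *Hes1* in Pericyte-like cells. By gene, *Notch4* was higher in 4 of 6 populations tested, *Hes1* in 4 of 8, *Dll4* in 3 of 7, *Lfng* in 3 of 6, *Jag1* in 2 of 8 and *Jag2* in 2 of 6, *Hey1* was higher in 1 and lower in 1 of 6, and *Notch1* (8), *Mfng* (5) and *Notch3* (1) were called in none.

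The greatest number of calls was in Cap-Kdr and Vein cells, 4 in each, and these were in *Jag2*, *Dll4* and *Notch4* in both, *Jag1* in Cap-Kdr and *Lfng* in Vein cells. In Cap-Kdr cells *Jag1* rose from 15.8 and 11.7 in WT telogen to 75.2 and 72.1 CPM in Alk1 KO (2.18 ± 0.36, adjusted p = 5.57e-04), *Jag2* from 63.1 and 65.7 to 181 and 345 (1.79 ± 0.28, adjusted p = 3.72e-04) and *Dll4* from 78.9 and 65.7 to 159 and 194 (1.06 ± 0.22, adjusted p = 0.00257). *Notch4* rose from 63.1 and 67.2 to 232 and 216 (1.55 ± 0.21, adjusted p = 1.11e-04). In each of these genes both KO libraries lay above both WT telogen libraries, and 4 of 9 members tested were higher, where 16.6% of all genes were higher and 18.0% lower. *Hey1* was not called, at 55.9 and 49.6 against 50.9 and 26.2 (-0.67 ± 0.35, adjusted p = 0.157), nor was *Lfng* (-1.20 ± 0.49, adjusted p = 0.0717). The summed level of 13 artery markers in the same cells was 792 and 794 in WT telogen and 1387 and 1418 in KO, and its part in the result was not tested. Their median depth was 4056 UMIs in WT telogen and 2250 in KO. Erythroid transcripts were abundant in these cells of WT telogen replicate 1 and Alk1 KO replicate 2. The part of depth and of erythroid transcripts was not tested either. Without Alk1 KO replicate 2, *Dll4* (0.92, adjusted p = 0.0889), *Jag1* (2.23, adjusted p = 0.0518) and *Jag2* (1.28, adjusted p = 0.0516) were no longer called. When cells were clustered without correction between libraries, 34 and 27 KO cells remained in Cap-Kdr and none of the 4 was called, with *Dll4* at -0.02.

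In Vein cells, where the ligands were scarce in WT, *Jag2* rose from 14.6 and 20.3 to 45.2 and 59.4 CPM (1.56 ± 0.30, adjusted p = 0.00286). *Dll4* rose from 9.76 and 9.72 to 16.6 and 51.5 (1.71 ± 0.50, adjusted p = 0.0271). *Notch4* rose from 6.51 and 9.72 to 24.9 and 19.04 (1.45 ± 0.41, adjusted p = 0.0232) and *Lfng* from 12.2 and 30.1 to 50.5 and 48.2 (1.23 ± 0.35, adjusted p = 0.0216). The groups did not overlap in any of the 4, and 4 of 8 members tested were higher against 9.67% of all genes higher and 11.8% lower. Of the KO libraries, replicate 2 held more *Dll4* than replicate 1. Markers of Cap-Kdr cells (9 genes) summed to 2563 and 2201 CPM in WT telogen and 3660 and 3963 in KO Vein cells, and their part in the result was not tested. Calls were lost for *Dll4* without WT telogen replicate 1 or 2 or Alk1 KO replicate 2 (adjusted p 0.11 to 0.297), for *Notch4* without WT telogen replicate 1 or 2 or Alk1 KO replicate 1 (adjusted p 0.0764 to 0.203) and for *Lfng* without WT telogen replicate 1 (0.72, adjusted p = 0.232). *Jag2* held with each library left out but, like *Lfng* (-0.51), was not called without correction between libraries.

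Artery cells, which carried most of these transcripts in WT, had ligand levels in the KO libraries that did not pass the test. *Jag1* measured 254 and 196.5 in WT telogen and 277 and 319.9 in KO (0.41 ± 0.17, adjusted p = 0.108), *Jag2* 176 and 168.5 and 161 and 163.5 (-0.08 ± 0.14, adjusted p = 0.76), and *Dll4* 210.4 and 144 and 136 and 222.5 (0.02 ± 0.23, adjusted p = 0.963), and none was called. *Hes1* rose from 121 and 129.7 to 256 and 205 (0.89 ± 0.16, adjusted p = 0.00304), *Lfng* from 16.4 and 6.61 to 25.9 and 28.7 (1.21 ± 0.39, adjusted p = 0.0497) and *Notch4* from 73.5 and 83.4 to 134 and 99.7 (0.58 ± 0.18, adjusted p = 0.0474). Of 9 members tested 3 were higher and 0 lower, with 8.13% of all genes higher and 10.1% lower. *Hes1* was called with each library left out and under each alternative fitted to Artery cells as a whole. *Lfng* was not called without WT telogen replicate 2 or either KO replicate (adjusted p 0.107 to 0.317) and *Notch4* not without either WT telogen replicate or Alk1 KO replicate 1 (adjusted p 0.0803 to 0.281). Fitted apart, the 3 clusters that make up Artery gave different values, and the difference between them was not tested: *Hes1* was 1.06 in cluster 4 and 1.95 in cluster 7, both called, and -0.15 in cluster 5, not called.

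In Cap-Rgcc cells *Dll4* rose from 162 and 91.9 to 227 and 255 (0.90 ± 0.25, adjusted p = 0.0234) and *Hes1* from 75.2 and 83.04 to 117 and 184 (0.90 ± 0.25, adjusted p = 0.0235). *Hey1* fell from 40.1 and 35.6 to 17.6 and 3.12 (-1.78 ± 0.52, adjusted p = 0.0304), the 1 decrease called among the members. It rested on 16 KO against 56 WT telogen counts. The target genes were thus called in opposite directions in these capillaries, and the difference between them was not tested. Of 8 members tested 2 were higher and 1 lower, with 7.76% of all genes higher and 9.83% lower. None of these calls held with DESeq2. At resolution 1.2 *Dll4* and *Hey1* were not called. *Hes1* was not called under the stricter cell limits or with all 6 libraries in one fit. *Dll4* was not called without WT telogen replicate 2 (0.57, adjusted p = 0.428), *Hes1* not without either WT telogen replicate or Alk1 KO replicate 2 (adjusted p 0.0731 to 0.161), and *Hey1* not without WT telogen replicate 1 or Alk1 KO replicate 2 (adjusted p 0.0768 to 0.0919).

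In lymphatic vessels the most stable change was that of *Hey1*. It rose in Lymph-Cap cells from 23.98 and 21.96 to 87.3 and 66.2 CPM (1.68 ± 0.26, adjusted p = 5.70e-04), with both KO libraries above all 4 WT libraries, and was called with each library left out and under each alternative run. It was the 1 member of 6 called there, with 6.73% of all genes higher and 8.62% lower. The Lymph-Cap population held 179 and 164 cells in WT telogen and 399 and 504 in KO. Its median depth was 3878 UMIs in WT telogen and 5296 in KO. The part of cell number and depth in the result was not tested. In Lymph-Col cells *Hey1* measured 14.3 and 9.55 against 18.8 and 13.99 and was not called (0.38 ± 0.35, adjusted p = 0.497), while *Lfng* rose from 19.4 and 18.1 to 41.7 and 32.4 (0.91 ± 0.26, adjusted p = 0.0299) and *Notch4* from 2.56 and 1.06 to 7.64 and 6.36 (1.83 ± 0.59, adjusted p = 0.0489). Of 8 members tested there 2 were higher and 0 lower, where 8.73% of all genes were higher and 9.58% lower. *Notch4* was lost on leaving out any 1 of the 4 libraries (adjusted p 0.103 to 0.488) and *Lfng* without either WT telogen replicate or Alk1 KO replicate 1 (adjusted p 0.085 to 0.16).

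Outside the endothelium, *Hes1* rose in Pericyte-like cells from 181 and 222.5 to 469.9 and 447.5 (1.10 ± 0.26, adjusted p = 0.0456) and in Cdh5+/Krt19+ cells from 129 and 106.5 to 322 and 302.5 (1.33 ± 0.20, adjusted p = 4.74e-04). *Jag1* rose in Pericyte-like cells from 88.8 and 88.7 to 246 and 270.4 (1.45 ± 0.25, adjusted p = 0.0215), and was not called in Cdh5+/Krt19+ cells (109 and 84.5 against 86.6 and 95.5, -0.18 ± 0.25, adjusted p = 0.67). *Notch3*, the receptor of pericytes and vascular smooth muscle, was 300.3 and 339.6 against 345 and 517.5 in Pericyte-like cells (0.33 ± 0.28, adjusted p = 0.478) and was not called. Neither were *Jag2* (-2.26 ± 0.59, adjusted p = 0.0572) and *Mfng* (-2.82 ± 0.83, adjusted p = 0.0773, 2 against 68 counts) there. Of 9 members tested in Pericyte-like cells 2 were higher (3.06% of all genes higher, 3.47% lower), and of 4 in Cdh5+/Krt19+ cells 1 was higher (10.2% higher, 11.0% lower). Both Pericyte-like calls were lost without WT telogen replicate 1 or 2 (adjusted p 0.232 to 0.24 for *Jag1* and 0.355 to 0.594 for *Hes1*), and EC markers there summed to 3571 and 2945 CPM in WT telogen and 688 and 2019 in KO, whose part was not tested. *Hes1* in Cdh5+/Krt19+ cells held under every alternative run. *Hes1* differed in the same direction in cells that were not compared by a test, at 4.2 and 4.24 against 46.9 and 43.3 in immune-like and 44.2 and 46.1 against 284.5 and 128 in fibroblast-like cells.

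**Figure D2:**
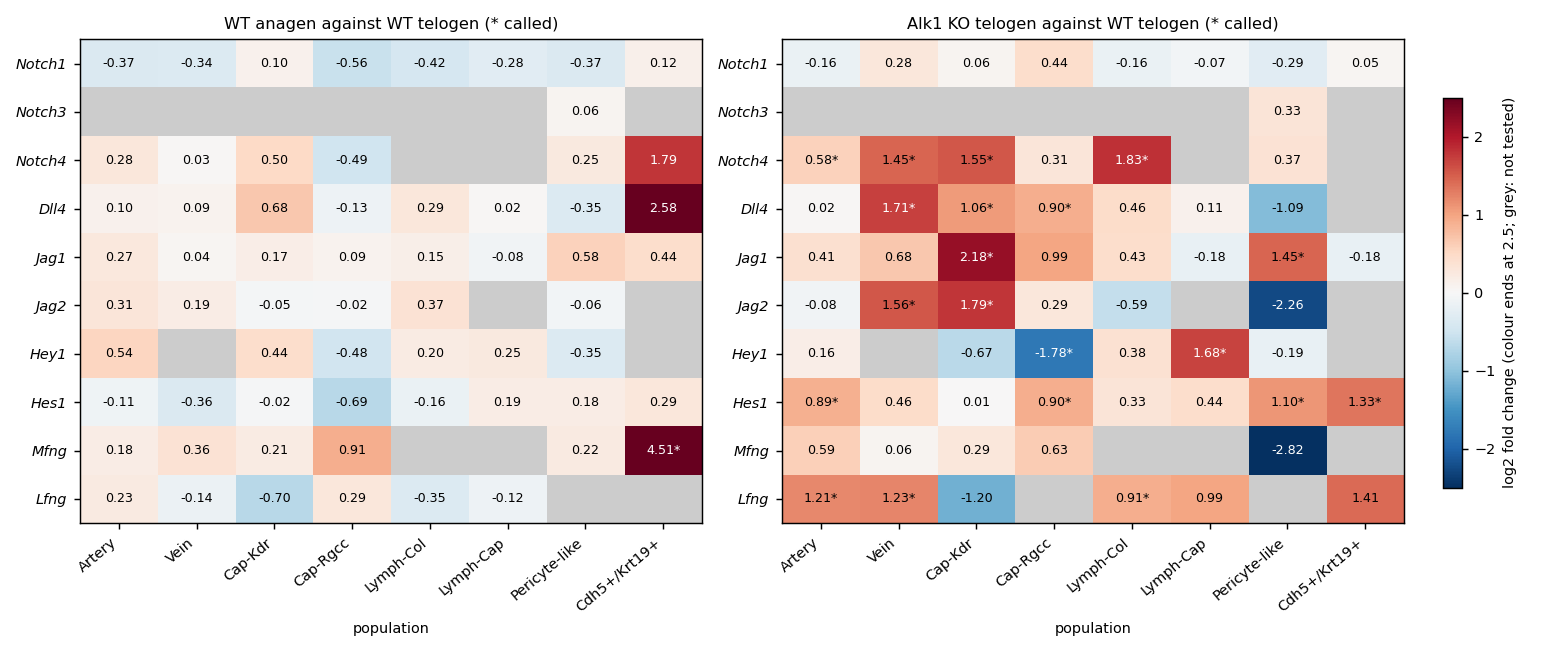
Log2 fold changes (colour and printed value, an asterisk for called, grey for not tested) of the 10 genes in the 8 populations for WT anagen against WT telogen (left) and Alk1 KO against WT telogen (right). The left panel has 1 called value (4.51, *Mfng* in Cdh5+/Krt19+ cells) and the right panel 20, of which 19 are above 0 and 1 is below (-1.78, *Hey1* in Cap-Rgcc cells).

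An interaction fit asked whether the KO difference itself differed between vessels. For Artery minus the mean of Vein, Cap-Kdr and Cap-Rgcc it was -1.32 ± 0.24 (adjusted p = 5.34e-04) for *Jag2*, -1.25 ± 0.27 (adjusted p = 0.00365) for *Dll4* and -0.92 ± 0.25 (adjusted p = 0.0254) for *Jag1*, so that the difference in all 3 ligands was smaller in arteries than in the other blood vessels, where 4.32% of all genes differed in either direction. The other 6 members tested were not called (*Notch1* -0.46, *Notch4* -0.57, *Hey1* 1.03, *Lfng* 0.91, *Hes1* 0.38 and *Mfng* 0.22, adjusted p 0.136 to 0.799). For blood minus lymphatic ECs it was 0.96 ± 0.23 (adjusted p = 0.00319) for *Jag1*, 0.65 ± 0.23 (adjusted p = 0.044) for *Dll4* and -1.65 ± 0.37 (adjusted p = 0.00173) for *Hey1*, where 17.5% of all genes differed. The others were not called (*Jag2* 0.72, *Mfng* -0.45, *Lfng* -0.41, *Notch4* -0.40, *Notch1* 0.28 and *Hes1* 0.19, adjusted p 0.156 to 0.627). The difference in *Jag1* and *Dll4* was thus greater in the mean of the blood populations and that in *Hey1* greater in the mean of the lymphatic ones. Without WT telogen replicate 1 none of the 3 arterial values was called (adjusted p 0.0786 for *Dll4*, 0.0542 for *Jag2* and 0.483 for *Jag1*), nor was *Jag1* for blood minus lymphatic ECs (0.124). Without WT telogen replicate 2 *Dll4* (0.493) and *Hey1* (0.0516) were lost in the latter, without Alk1 KO replicate 1 *Jag1* in both (0.123 and 0.0555), and without Alk1 KO replicate 2 *Dll4* (0.235). Under the stricter cell limits the arterial *Jag1* value and the *Dll4* and *Hey1* values for blood minus lymphatic ECs were not called. The same *Jag1* and *Dll4* values were not called at resolution 1.2, nor this *Dll4* value with DESeq2. The blood and lymphatic means did not hold for each population fitted alone. The *Dll4* difference was 0.02 in Artery, 0.46 in Lymph-Col and 0.11 in Lymph-Cap cells. That of *Jag1* was 0.41 in Artery and 0.43 in Lymph-Col cells. *Hey1* was called higher in Lymph-Cap cells (1.68) but not in Lymph-Col cells (0.38), and lower in Cap-Rgcc cells (-1.78).

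**Figure D3:**
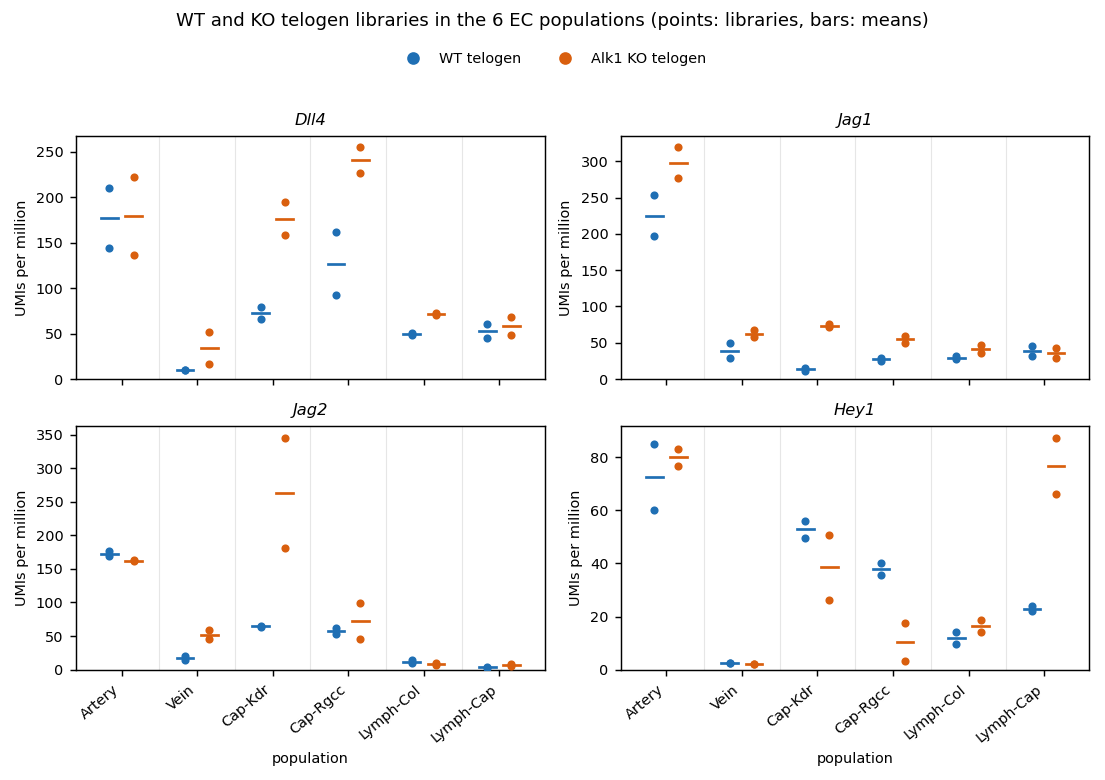
CPM of *Dll4*, *Jag1*, *Jag2* and *Hey1* in the 6 EC populations, with 1 point per WT telogen (blue) or Alk1 KO telogen (orange) library and a bar at the mean of 2 libraries. In Cap-Kdr cells the *Jag1* points lie at 75.2 and 72.1 in KO against 15.8 and 11.7 in WT telogen, in Lymph-Cap cells the *Hey1* points at 87.3 and 66.2 against 23.98 and 21.96, and in Artery cells the points of the groups overlap for *Dll4* and *Hey1*.

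Of 261 tests of the other pathway genes in the same comparison, 26 were higher and 19 lower. These shares lie within those of all genes over the populations (3.06 to 16.6% higher and 3.47 to 18.0% lower), so the genes below are described singly and say nothing of the list. The list's median was between 0.00 and 0.23 in each population, where that of the members tested was between -0.19 and 0.955. *Ep300*, a coactivator of the Notch transcription complex, was higher in 7 populations (0.75 to 1.40), *Spen*, a corepressor partner of RBPJ, in 4 (0.93 to 1.32), and *Furin*, the protease that matures the receptors, in 3 (0.57 to 1.22). In lymphatic cells *Aph1b*, a gamma-secretase subunit, was higher in both populations (2.15 to 2.67). *Neurl3* was lower in 4 populations (-2.42 to -1.01) and *Egfl7* in 3 (-2.66 to -0.56). *Dll1*, another ligand, was lower in Cap-Rgcc cells (-1.46 ± 0.37, adjusted p = 0.0161), where *Dll4* was higher. *Heyl* in Cdh5+/Krt19+ cells went from 104 counts to 0, at least 2.07-fold lower. In the interaction fits *Spen* (-1.08 ± 0.24, adjusted p = 0.00473) differed less in arteries than in other blood vessels, as the ligands did, while *Dll1* was on the opposite side (1.07 ± 0.30, adjusted p = 0.0359). The stage and KO comparisons share the WT telogen libraries.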

How the data were processed

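Cell Ranger 6.0.1 and the mm10 genome build were used by the authors to make the deposited matrices, which hold raw UMI counts per gene and barcode of Chromium Single Cell 3′ v3 libraries, and Seurat 4.0 is named in the submitters' notes. The gene and mitochondrial limits on cells were those of the study. Cells were clustered with scanpy 1.11.5 (3000 variable genes, 30 components, a Harmony-type correction between libraries, 20 neighbours, Leiden resolution 0.6) after removal of the members and the other Notch genes, and a cluster was named from at least 3 markers that were 2-fold higher and present in 25% of its cells; 980 of 12879 EC cells stayed unnamed. The gene Egfl7 was in both the Notch and the EC marker lists. Counts were summed per population and library (at least 5 cells) and tested with edgeR 4.0.16 (quasi-likelihood, filterByExpr, TMM) in R 4.3.3 over all genes that passed the filter, with library as a block between populations. Stage and genotype were tested within each population, and interactions called on the adjusted p alone. Levels in the text are CPM computed from these sums, and total counts ranged from 10615358 to 43317677 a library. Values were given for every member tested, in the text or a plot (as ranges for the stage interactions), and for other Notch genes by the largest changes or the number of populations called. Members and lists were chosen with earlier results of these data known. On simulated data with 2-fold changes, 8.96 to 68.7% of changed genes were recovered over the 8 genotype comparisons. Over the 8 stage comparisons it was 4.48 to 76.1%, so changes of this size by stage could be missed. Doublets were scored with the Scrublet method, whose automatic threshold marked 3 to 51 cells a library, so the highest 5% were removed instead in 5 libraries in an alternative. Other alternatives were stricter cell limits (500 genes, 5% mitochondrial), resolution 1.2, no correction between libraries, no count filter, DESeq2 1.42.0, DESeq2 size factors, no fold threshold, leaving out each library, a replicate block and other sets of libraries. Fitting the Artery clusters apart was chosen after seeing the data. Intervals cover counting error only.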

Additional observations from a re-analysis of the deposited data

Results flagged for a closer look

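The KO difference was not of one size in all vessels for *Dll4*, *Jag1*, *Jag2* and *Hey1*, by a test of the difference itself (edgeR interaction, adjusted p under 0.05). For Artery cells minus the mean of Vein, Cap-Kdr and Cap-Rgcc cells it was -1.25 for *Dll4*, -0.92 for *Jag1* and -1.32 for *Jag2* on the log2 scale. For blood minus lymphatic ECs it was 0.65 for *Dll4*, 0.96 for *Jag1* and -1.65 for *Hey1*. None of the 6 was called under every setting and with each library left out. No group had the 4 samples that a search for an outlying library needs.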

How the results depend on the processing

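Of 45 member differences between WT populations, 31 were called under each alternative and with each library left out, and 36 with each library left out; of the 20 genotype differences these numbers were 3 and 5. Between Lymph-Col and Lymph-Cap cells the number of members called (2) was 1 without the library block and 1 to 2 with a library left out, and for Pericyte-like cells (5) it was 8 without correction between libraries. For stage (1 member test called) it was 0 with stricter cell limits, 0 with doublets removed, 2 at resolution 1.2, 0 without correction between libraries, 4 without the count filter, 0 for populations summed as blood or lymphatic ECs, 0 with the Artery clusters apart and 0 to 9 with a library left out. For genotype (20) it was 9 without correction between libraries, 9 with DESeq2, 8 for the summed classes, 4 for the Artery clusters apart, which hold fewer tests, and 10 to 21 with a library left out. For the interactions (3 each) it was 0 to 3 with a library left out in Artery minus other blood ECs, and 1 with stricter cell limits and 1 to 3 with a library left out in blood minus lymphatic ECs. A replicate block gave 2 stage and 18 genotype calls; same-numbered libraries did not deviate together (r between -0.073 and 0.035, apart from 0.146 and -0.138 in Pericyte-like cells), so the numbers were not taken as pairs. The direction turned in 3 results without correction between libraries: *Hes1* in Vein against capillaries (0.02), *Lfng* in KO Vein cells (-0.51) and *Dll4* in KO Cap-Kdr cells (-0.02). The cause was not tested; that clustering left 2 and 0 KO cells in Cap-Rgcc, so its genotype test and the genotype interactions could not be computed. With a library left out, the lone library of a group is assumed to vary like the others.

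Shares of cells with a UMI rise with depth: thinned to 3000 UMIs and unthinned, they were 53.7% and 66.9% for *Notch1*, 22.3% and 36.1% for *Notch4*, 35.5% and 50.7% for *Dll4*, 44.9% and 58.2% for *Jag1*, 40.2% and 57.5% for *Jag2*, 20.98% and 30.8% for *Hey1* (Artery), 60.1% and 84.7% for *Notch3* (Pericyte-like), 43.5% and 51.9% for *Hes1* (Lymph-Col), and 20.5% and 28.8% for *Mfng* and 7.49% and 8.66% for *Lfng* (Cap-Kdr).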

Other observations

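Immune-like cells from the same sort, which are outside the vessels, carried *Notch1* at 96.0, 106.5, 102 and 60.1 CPM in the 4 WT libraries and 95.7 and 144.5 in the KO libraries, and *Lfng* at 41.9, 32.5, 57.1 and 24.3 and at 60.04 and 54.1. Their *Hes1* was at 13.3 or less in every WT library and at 46.9 and 43.3 in the KO libraries. In fibroblast-like cells *Hes1* measured 44.2, 46.1, 94.8 and 56.3 in WT and 284.5 and 128 in KO. These values were not tested.

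2 clusters of ECs stayed unnamed. EC cluster 9, led by *Lrat*, *Pcp4l1* and *Apcdd1*, held *Jag2* at 88.3, 88.6, 106 and 78.5 CPM in WT and 207 and 243 in KO, and *Notch4* at 14.7, 44.3, 49.04 and 37.6 in WT and 160 and 78.3 in KO. EC cluster 13, led by *Prnd*, *Apln* and *Pgf*, had *Hes1* at 218, 76.7, 181 and 87.05 in WT and 703 and 384.5 in KO, and *Dll4* at 218, 136, 135 and 100.4 in WT and 139 and 338 in KO. These clusters held 23 to 325 and 7 to 101 cells a library, and the values were not tested.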
